A study of Arabidopsis thaliana with 12 samples.

Results

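The genes of root iron uptake described here are the transporter genes IRT1 (AT4G19690), IRT2 (AT4G19680) and NRAMP1 (AT1G80830), the ferric reductase gene FRO2 (AT1G01580), the proton pump gene AHA2 (AT4G30190), and 5 genes for basic helix-loop-helix (bHLH) transcription factors, FIT (AT2G28160), bHLH38 (AT3G56970), bHLH39 (AT3G56980), bHLH100 (AT2G41240) and bHLH101 (AT5G04150). They were chosen by name, with earlier results of these data known, and are 10 of the 33602 loci in the count table. RNA had been sequenced from roots of Arabidopsis thaliana in the Col-0 background, 6 days after exposure to light, in 4 groups of 3 biological replicates: myb36-1 sorted endodermis, wild-type sorted endodermis, myb36-1 whole root and wild-type whole root. MYB36 is a MYB factor of the endodermis, which surrounds the vascular tissue and lays down the Casparian strip. Sorted cells came from roots digested to protoplasts and separated by fluorescence, and the reporter used for sorting is not given in the sources used here. All plants grew on MS medium with sucrose, which supplies iron, and no group was grown without iron. The myb36-1 allele was the only mutant allele used, and the labels do not say how it affects the gene.

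Arabidopsis takes up iron by a reduction strategy. Plasma membrane proton pumps acidify the soil around the root, a ferric reductase turns ferric into ferrous iron, and a transporter of the ZIP family carries ferrous iron into the epidermis. The transcription factor FIT pairs with the bHLH proteins of subgroup Ib, which are bHLH38, bHLH39, bHLH100 and bHLH101, to switch on FRO2 and IRT1 when iron is short. IRT1 and FRO2 are best known from the root epidermis.

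Libraries held 7280556 to 13427477 counts in myb36-1 sorted endodermis and 17721913 to 24274637 in wild-type sorted endodermis. The whole-root libraries held 19812171 to 21691381 counts in myb36-1 and 20928259 to 22722091 in wild type. A count of 0 allows a level of up to 3 counts, which is 0.265 to 0.435 CPM (counts per 1e6 counts) in myb36-1 sorted libraries and 0.135 to 0.181 CPM in wild-type sorted libraries, and this floor covers counting error only. CPM were scaled by TMM factors over all 12 libraries. MYB36 itself was at 97.1 to 191 CPM in myb36-1 sorted endodermis and 133 to 266 CPM in wild-type sorted endodermis, groups that overlapped. In whole roots it was at 16.7 to 19.5 CPM in myb36-1 and 30.4 to 34.8 CPM in wild type, and it fell by 0.84 on the log2 scale (SE 0.11, adjusted p = 0.00252). The labelled cell type could be checked against 10 endodermis genes, which include MYB36, SCR and the CASP genes. Their summed level was 1520 to 1798 CPM in myb36-1 sorted endodermis, 2483 to 3690 CPM in wild-type sorted endodermis, 187 to 192 CPM in myb36-1 whole roots and 691 to 894 CPM in wild-type whole roots. These genes did not move together in sorted cells, where 7 were called lower in myb36-1 and 2 higher. SCR, a transcription factor of endodermis identity, averaged 840 ± 158 CPM in myb36-1 and 296 ± 57.4 CPM in wild type (SD, n = 3 each; log2 fold change 1.53, edgeR adjusted p = 0.00351), and GSO1, a receptor kinase of Casparian strip formation, averaged 414 ± 69.9 CPM in myb36-1 and 78.1 ± 31.8 CPM in wild type (2.44, adjusted p = 0.00153). The genes called lower were CASP1 to CASP5, PER64 and ESB1, all of which were also called lower in myb36-1 whole roots. Because these genes differ by genotype in unsorted roots too, the summed level cannot compare the purity of sorting between genotypes. In bulk samples, fewer cells of a type and less RNA per cell cannot be told apart.

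IRT1 lies on chromosome 4 at chr4:10707344-10709015 and IRT2 at chr4:10703348-10704838, both on the plus strand of TAIR10.1 and 2505 bases apart. bHLH38 at chr3:21084035-21085245 and bHLH39 at chr3:21086390-21087710 are also neighbours, on the minus strand and 1144 bases apart. The 250 bases upstream of the annotated gene start are shown for both neighbour pairs, whose members differ in sorted cells, and for bHLH100, the other subgroup Ib gene with a G-box. They come from the RefSeq genome TAIR10.1, at chr4:10707094-10707343 for IRT1, chr4:10703098-10703347 for IRT2, chr3:21085246-21085495 for bHLH38, chr3:21087711-21087960 for bHLH39 and chr2:17199455-17199704 for bHLH100, each written on the strand of its gene. Capitals mark the E-box, CANNTG, which bHLH proteins can bind and which reads the same on both strands.
IRT1: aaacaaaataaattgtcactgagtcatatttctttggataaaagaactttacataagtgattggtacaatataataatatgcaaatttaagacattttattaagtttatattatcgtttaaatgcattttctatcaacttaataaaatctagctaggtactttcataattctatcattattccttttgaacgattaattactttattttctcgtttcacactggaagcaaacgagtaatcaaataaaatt
IRT2: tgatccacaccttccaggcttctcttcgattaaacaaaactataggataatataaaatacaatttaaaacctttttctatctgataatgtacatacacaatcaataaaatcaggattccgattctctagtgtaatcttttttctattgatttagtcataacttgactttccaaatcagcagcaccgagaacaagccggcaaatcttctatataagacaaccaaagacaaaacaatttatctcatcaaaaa
bHLH38: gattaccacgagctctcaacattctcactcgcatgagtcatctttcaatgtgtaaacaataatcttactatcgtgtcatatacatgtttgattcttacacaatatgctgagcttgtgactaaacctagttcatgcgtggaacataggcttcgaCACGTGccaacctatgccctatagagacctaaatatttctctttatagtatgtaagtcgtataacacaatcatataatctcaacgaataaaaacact
bHLH39: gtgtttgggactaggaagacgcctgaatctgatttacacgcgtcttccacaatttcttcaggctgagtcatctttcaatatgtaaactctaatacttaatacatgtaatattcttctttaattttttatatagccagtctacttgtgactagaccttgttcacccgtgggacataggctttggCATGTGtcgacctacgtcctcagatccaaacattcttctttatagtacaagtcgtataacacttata
bHLH100: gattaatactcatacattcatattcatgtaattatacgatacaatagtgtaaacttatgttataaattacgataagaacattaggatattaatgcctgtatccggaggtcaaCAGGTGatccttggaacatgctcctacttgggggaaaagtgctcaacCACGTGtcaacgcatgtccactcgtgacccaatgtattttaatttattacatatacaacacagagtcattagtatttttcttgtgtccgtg
An E-box was found in 55.3% of 27438 upstream windows of this length, and the G-box form CACGTG, which is one kind of E-box, in 6.49%. bHLH38 held 1 G-box that began 97 bases before the gene start, and bHLH100 held 1 that began 91 bases before it. bHLH39 held the E-box CATGTG, beginning 67 bases before the start, and no G-box. FIT held CAAATG and NRAMP1 held CAACTG, while the windows of IRT1, IRT2, FRO2, bHLH101 and AHA2 held no E-box. The windows of bHLH38 and bHLH39 shared an unbroken run of 16 bases, and those of IRT1 and IRT2 shared none longer than 9. These are matches of letters in these windows only.

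The question of the first comparison was how the genes differ between genotypes within the sorted endodermis. In myb36-1 sorted cells the transcripts of IRT2, FRO2, FIT and NRAMP1 were lower than in wild-type sorted cells, IRT2 and FRO2 the most, and none of the 10 genes was called higher. Calls are at an adjusted p under 0.05 in edgeR's quasi-likelihood test, adjusted by Benjamini-Hochberg over all genes tested, and every adjusted p below is from it unless another is named. Of the 10 genes, 4 were called lower, 3 were tested and not called, and 3 (IRT1, bHLH38 and bHLH100) were too low to be tested. IRT2 and FRO2 passed the low-count filter only through the wild-type libraries, so a call for them could only be lower. Of the 18318 genes tested, 12.9% were called lower, 15.6% higher and 28.5% in either direction. A log2 fold change is given with its standard error (SE).

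FIT, the regulator on which FRO2 and IRT1 depend, was at 6.80, 3.65 and 7.25 CPM in the 3 myb36-1 sorted libraries and at 30.7, 28.4 and 23.8 CPM in the 3 wild-type ones. Every myb36-1 sorted library lay below every wild-type one. The log2 fold change was -2.20 (SE 0.34, adjusted p = 0.00296).

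FRO2, the ferric reductase at the root surface, was at 1.32, 0 and 0.435 CPM in myb36-1 sorted libraries and at 10.5, 13.0 and 12.8 CPM in wild-type ones. The groups did not overlap, and 15 of the 18 mutant counts came from replicate 1. The log2 fold change was -4.22 (SE 0.86, adjusted p = 0.00916), and -5.82 without myb36-1 replicate 1.

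IRT2, a ZIP transporter of the root epidermis closely related to IRT1, had 1, 1 and 0 counts in the 3 myb36-1 sorted libraries and 85, 94 and 114 counts in the wild-type ones. The mutant libraries lay at or under the floor of 3 counts. With 2 counts against 293, the scaled ratio was 66.6-fold lower in myb36-1, with an exact 95% interval of 18.3 to 553 that covers counting error only. The fitted log2 fold change was -5.92 (SE 0.89, adjusted p = 0.00274).

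NRAMP1, a manganese transporter that also carries iron, was at 23.2, 36.3 and 20.9 CPM in myb36-1 sorted libraries and at 71.8, 84.8 and 66.6 CPM in wild-type ones. All myb36-1 values were lower than all wild-type ones. The log2 fold change was -1.44 (SE 0.26, adjusted p = 0.00600). The gene overlaps CCR2 by 132 bases on the opposite strand. The strand setting of the counting is not given in the sources used here, so reads of such a pair may not be told apart.

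AHA2, the main plasma membrane proton pump of the root with its close relative AHA1, was the most abundant of the 10 genes. It was at 744, 673 and 826 CPM in myb36-1 sorted libraries and at 540, 454 and 556 CPM in wild-type ones. The groups did not overlap, but the log2 fold change of 0.56 (SE 0.20, adjusted p = 0.0679) was not called. AHA1 averaged 639 ± 77.9 CPM in myb36-1 and 392.2 ± 82.2 CPM in wild-type sorted libraries (SD, n = 3 each), a log2 fold change of 0.73 (SE 0.23, adjusted p = 0.0461). That call was made in 6 of 14 alternative fits, with an adjusted p between 0.00657 and 0.181.

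Among the subgroup Ib genes, bHLH39 pointed the other way. It was at 2.56, 2.52 and 1.89 CPM in myb36-1 sorted libraries and at 1.23, 0.942 and 0.662 CPM in wild-type ones. The mutant values all exceeded the wild-type ones, from 13 to 29 counts in each mutant library and 11 to 23 in each wild-type library. The log2 fold change of 1.32 (SE 0.69, adjusted p = 0.191) was not called.

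bHLH101 had 16, 3 and 0 counts in myb36-1 sorted libraries and 9, 20 and 25 in wild-type ones, which overlapped (log2 fold change -0.58, SE 1.17, adjusted p = 0.747). It overlaps GLU1 by 79 bases on the opposite strand. bHLH38 had no count in any myb36-1 sorted library and 0, 1 and 1 counts in wild-type ones. bHLH100 likewise had no count in myb36-1 and 0, 0 and 5 in wild type. IRT1 had 1, 1 and 0 counts in myb36-1 sorted libraries and 4, 2 and 4 in wild-type ones. A difference between genotypes in these last genes was not detectable at this depth. In all, 6 of the 10 genes showed no overlap between the groups' libraries, and these 6 were among the 7 tested. Of all genes tested, 49.3% showed none.

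**Figure D1:**
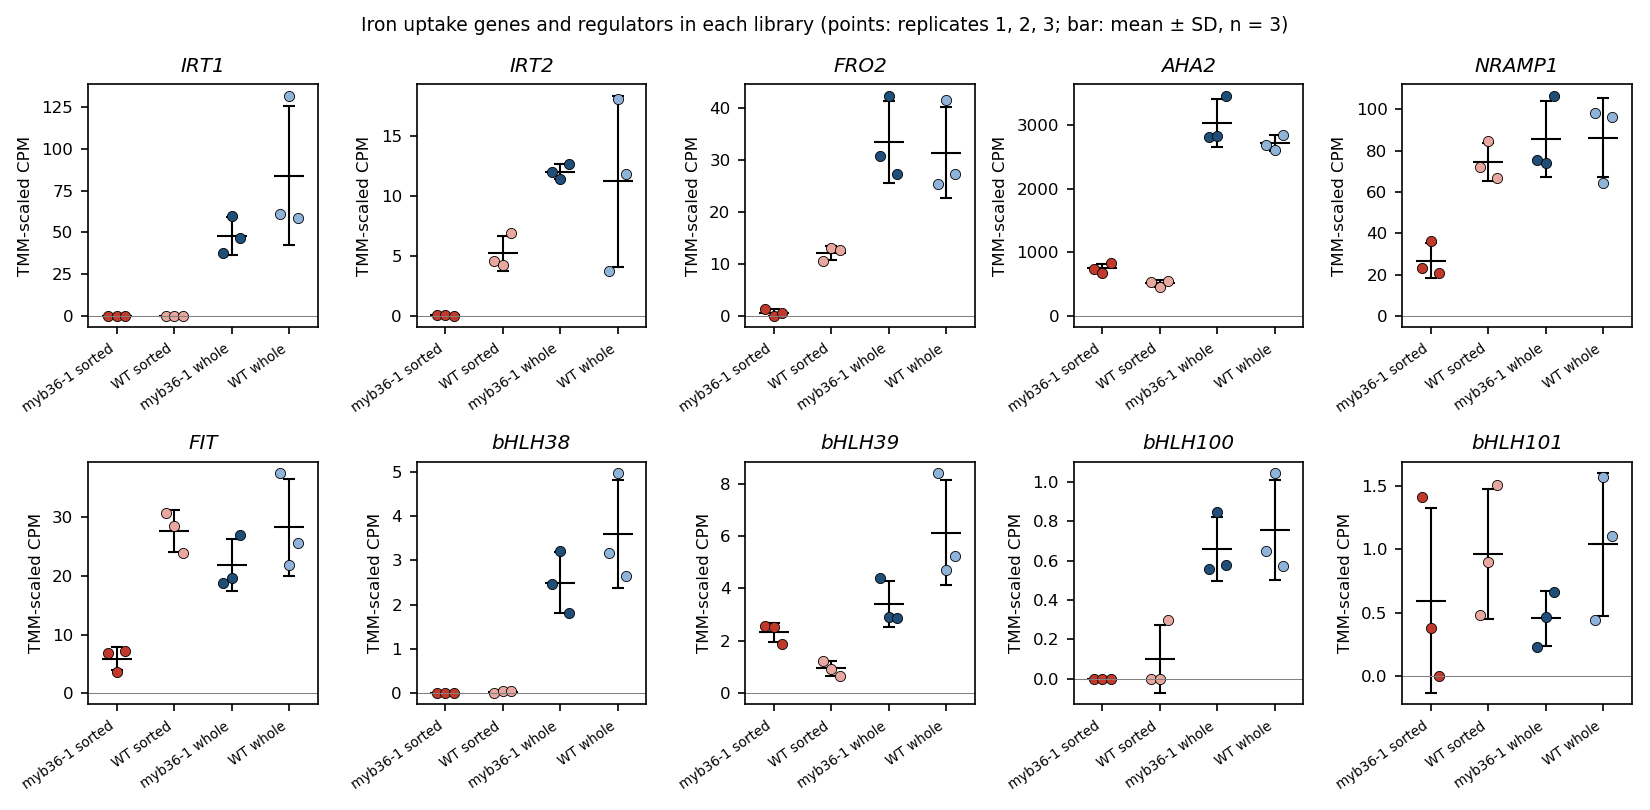
TMM-scaled CPM of each gene (vertical axis, a separate linear scale for each gene) in the 4 groups, sorted endodermis at left and whole root at right; points are replicates 1, 2 and 3, horizontal bars the mean and error bars the SD. IRT2, FRO2, FIT and NRAMP1 lie lower in myb36-1 than in wild-type sorted cells, and IRT1 is near 0 in all 6 sorted libraries.

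Markers of other cell types differed by list in myb36-1 sorted cells. Most epidermis and root cap genes were called lower, and none of the stele genes tested was. Among all genes tested, 12.9% were called lower and 15.6% higher. Of 13 epidermis and root hair genes, 8 were called lower in myb36-1 sorted cells and none higher, with a median log2 fold change of -2.63 beside -0.05 over all genes tested. Their summed level was 91.1 to 133 CPM in myb36-1 sorted libraries and 356 to 440 CPM in wild-type ones, and no marker was at 0 in either group. WER, an epidermal MYB factor chosen after its values were seen, had the lowest log2 fold change of this list. It averaged 1.13 ± 1.75 CPM in myb36-1 and 59.6 ± 13.8 CPM in wild-type sorted libraries (SD, n = 3 each). LRX2, of the same list, lay above 0 with a log2 fold change of 0.25 and was not called. Among the epidermis genes called, WER, MYB23 and EXPA18 passed the low-count filter only through the wild-type libraries, so a call for them could only be lower.

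Of 5 root cap genes, 4 were called lower, with a median of -5.71, and FEZ (log2 fold change 0.50) was not called. Their summed levels were 2.14 to 17.8 CPM in myb36-1 and 104 to 144 CPM in wild-type sorted libraries. SMB, BRN1 and BFN1 passed the low-count filter only through the wild-type libraries, so a call for them could only be lower. The 2 cortex genes summed to 6.53 to 18.3 CPM in myb36-1 and 0.322 to 1.12 CPM in wild type. Only AT1G09750 of these was tested, and it was called higher (log2 fold change 4.78, adjusted p = 0.00401). It passed the low-count filter only through the myb36-1 libraries, so a call for it could only be higher. Of 8 stele genes, 6 could be tested and none was called by edgeR, DESeq2 or limma-voom (0 at an unadjusted p under 0.05), with sums of 165 to 225 CPM in myb36-1 and 203 to 257 CPM in wild type. Of 12 wounding and rapid stress genes, 7 were called higher (4 without wild-type sorted replicate 1 or 2), with sums of 2832 to 8215 CPM in myb36-1 and 1568 to 2147 CPM in wild type. The part of epidermal or root cap transcripts or of stress in the falls of IRT2, FRO2, FIT and NRAMP1 was not tested. With every sorted library thinned to the smallest total, the 4 genes were still called lower.

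**Figure D2:**
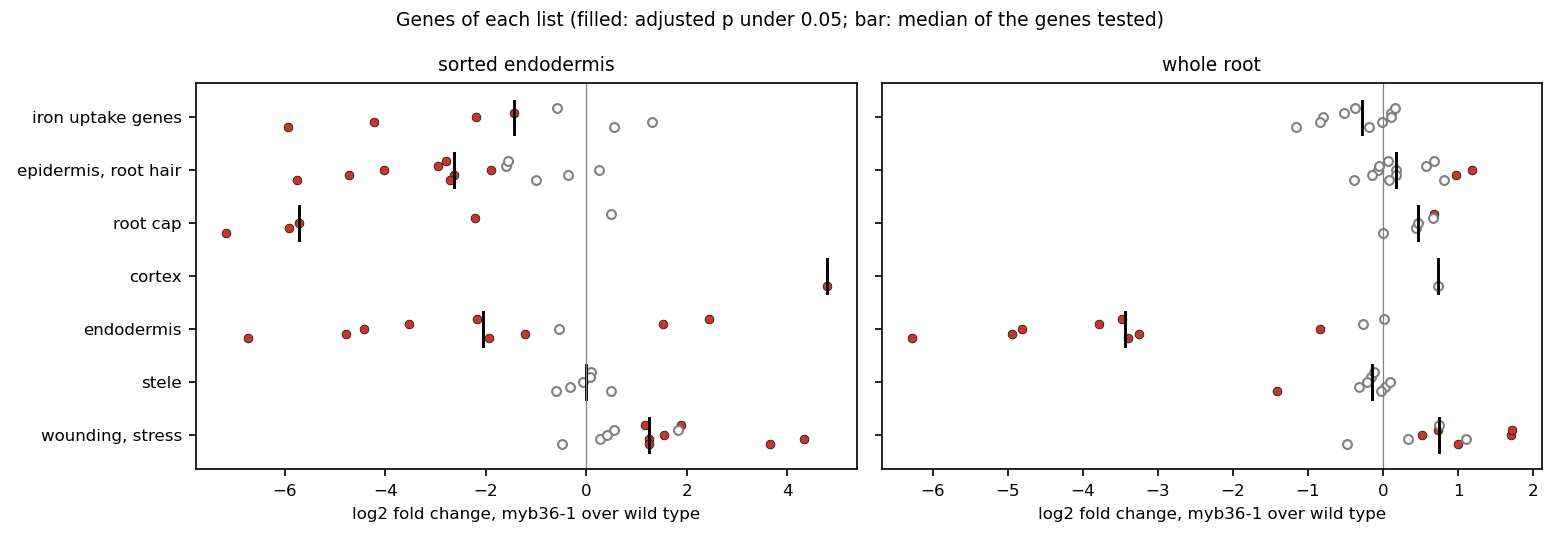
Log2 fold change of myb36-1 over wild type (horizontal axis) for the genes of each list, in sorted endodermis (left) and whole root (right); each point is a gene, filled points passed the test and bars are medians of the genes tested. In sorted endodermis 4 iron uptake genes, 8 epidermis genes and 4 root cap genes were called lower, and in whole root no iron uptake gene was called.

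The second comparison asked the same of intact roots. None of the 10 genes was called in myb36-1 whole roots against wild-type whole roots, where 3.25% of the 19624 genes tested were called higher, 2.85% lower and 6.1% in either direction. All 10 genes were high enough to be tested. At an unadjusted p under 0.05 there were 3, IRT1, bHLH39 and bHLH101, all lower in myb36-1, and DESeq2 and limma-voom also called none. With the replicate number as a block, IRT1 and bHLH39 were called lower. In 1 of the 10 genes the groups' libraries did not overlap, beside 24.2% of all genes tested.

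IRT1, the main iron transporter of the root surface, was at 37.6, 60.0 and 46.4 CPM in myb36-1 whole roots and at 61.0, 132 and 58.6 CPM in wild-type whole roots. The groups overlapped, and wild-type replicate 2 was above all other libraries. The log2 fold change was -0.80 (SE 0.30, adjusted p = 0.184), and it was -0.31 without wild-type replicate 2. The authors' deposited table, which holds 1 FPKM per genotype, gave IRT1 as 53.4 FPKM in myb36-1 and 106 FPKM in wild type, a log2 ratio of -0.98 with a q-value listed as 0. The authors' deposited table for whole root listed q-values above 0.05 for the other 9 genes. In sorted endodermis the authors' deposited table listed q-values of 0.000421 for FIT, 0.0111 for FRO2, 0.0801 for NRAMP1 and 0.117 for IRT2, the last at 0.162 FPKM in myb36-1 and 4.31 FPKM in wild type.

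bHLH39 was the gene without overlap, at 4.41, 2.92 and 2.89 CPM in myb36-1 whole roots and 8.41, 4.71 and 5.25 CPM in wild-type whole roots. Replicate 1 was the highest library in both genotypes. The log2 fold change was -0.84 (SE 0.27, adjusted p = 0.111). bHLH38 was at 2.46, 3.20 and 1.82 CPM in myb36-1 and 3.17, 4.97 and 2.65 CPM in wild type (log2 fold change -0.52, SE 0.29, adjusted p = 0.384). It overlaps the gene PIP5K4 on the opposite strand by 386 bases, so its counts could gain or lose reads there if strand was not used. bHLH101 was at 0.232, 0.471 and 0.666 CPM in myb36-1 and 0.447, 1.57 and 1.10 CPM in wild type (log2 fold change -1.16, adjusted p = 0.257). bHLH100 was at or below 1.05 CPM in every library, with a log2 fold change of -0.19.

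FIT was at 18.8, 19.7 and 27.0 CPM in myb36-1 whole roots and 37.6, 21.8 and 25.5 CPM in wild-type whole roots, with a log2 fold change of -0.37 (SE 0.21, adjusted p = 0.402). FRO2 was at 30.9, 42.5 and 27.4 CPM in myb36-1 and 25.4, 41.6 and 27.4 CPM in wild type, a log2 fold change of 0.10. IRT2 was at 11.9, 11.4 and 12.7 CPM in myb36-1 and 3.78, 18 and 11.8 CPM in wild type, a log2 fold change of 0.11 (SE 0.42). Wild-type replicate 1 was the lowest of the IRT2 values and replicate 2 the highest. NRAMP1 (log2 fold change -0.01) and AHA2 (0.17) also showed no called difference. The epidermis and root hair genes, which were lower in sorted myb36-1 cells, summed to 473 to 583 CPM in myb36-1 whole roots and 274 to 536 CPM in wild-type whole roots, with 2 of 13 called higher.

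**Figure D3:**
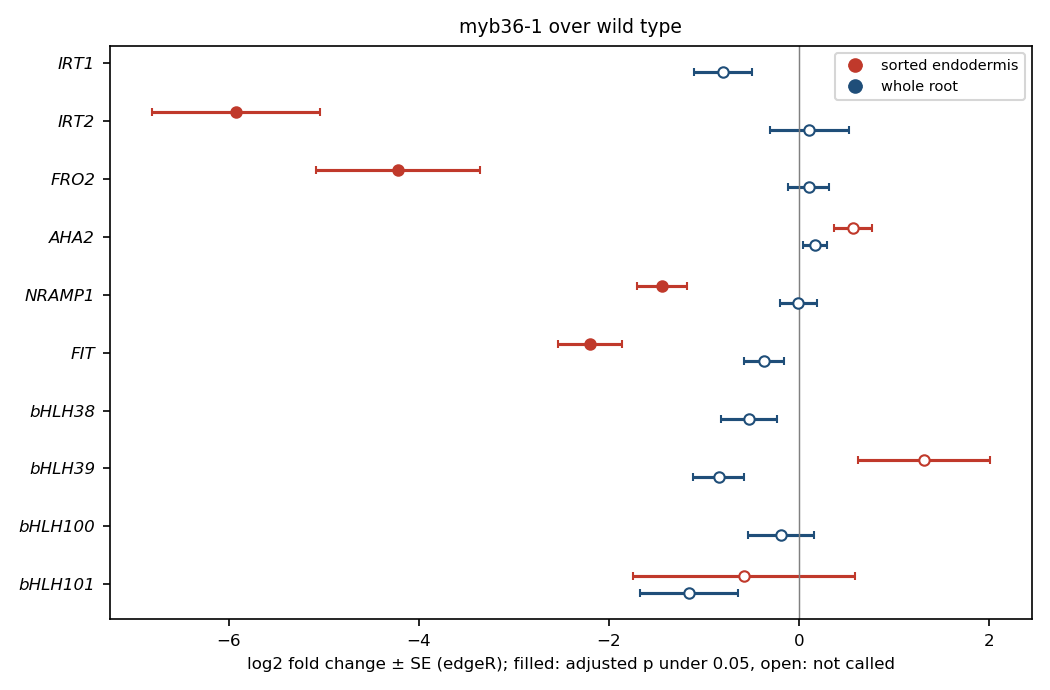
Log2 fold change of myb36-1 over wild type with its SE (horizontal axis) for the 10 genes, in sorted endodermis and in whole root; filled points passed the test and genes too low to test have no point. IRT2, FRO2, FIT and NRAMP1 are called in sorted endodermis and not in whole root, and bHLH39 lies above 0 there and below 0 in whole root.

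Whether the genotype effect differed between sorted cells and whole root was tested by the interaction term over all 12 libraries, in which 14.6% of 20302 genes were lower and 13.8% higher. IRT2 (log2 difference -6.07, SE 0.96, adjusted p = 0.000698), FRO2 (-4.28, SE 0.67, adjusted p = 0.000641), FIT (-1.85, SE 0.40, adjusted p = 0.00436) and NRAMP1 (-1.46, SE 0.34, adjusted p = 0.00707) were more negative in sorted cells. bHLH39 was more positive in sorted cells (2.14, SE 0.56, adjusted p = 0.0131). The other 5 genes were not called. All 5 calls held in every one of the 19 alternative fits.

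The third comparison set sorted cells against whole roots within each genotype. It also joins cell type, protoplasting, sorting and the RNA kit, which differ together and cannot be told apart. In wild type 6 of the 10 genes were lower in sorted endodermis and none higher, beside 35.4% of 19747 genes lower, 33.4% higher and 68.7% in either direction. IRT1, bHLH38 and bHLH100 passed the low-count filter only through the whole-root libraries, so a call for them could only be lower. IRT1 had 10 counts in the 3 wild-type sorted libraries together and 5852 in the 3 whole-root libraries, a log2 fold change of -8.84 (SE 0.50, adjusted p = 5.92e-07). FIT, by contrast, was not called, at 27.7 ± 3.52 CPM in wild-type sorted cells and 28.3 ± 8.24 CPM in wild-type whole roots (SD, n = 3 each; log2 fold change -0.01, SE 0.21). The summed epidermis list was 356 to 440 CPM in the wild-type sorted libraries and 274 to 536 CPM in the wild-type whole roots, with 5 of 13 genes called higher and 3 lower.

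bHLH38 had 2 counts in wild-type sorted cells and 252 in whole roots, a scaled ratio 103-fold lower with an exact 95% interval of 28.3 to 858. bHLH39 averaged 0.946 ± 0.286 CPM in wild-type sorted cells and 6.12 ± 2.00 CPM in wild-type whole roots (log2 fold change -2.66, adjusted p = 8.85e-05). These neighbouring genes both fell, and whether they fell to a different extent was not tested. bHLH100 (log2 fold change -2.99, adjusted p = 0.0134, with all 5 of its sorted counts in replicate 3 and 0 counts in the group without that library), AHA2 (-2.37, adjusted p = 9.21e-07) and FRO2 (-1.35, adjusted p = 0.000273) were also lower. IRT2 (-1.08, adjusted p = 0.0609), NRAMP1 (-0.19) and bHLH101 (-0.10) were not called.

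In myb36-1, 7 of the 8 genes high enough to test were lower in sorted cells than in whole roots, beside 17.3% of 19347 genes lower, 12.3% higher and 29.6% in either direction. IRT1, IRT2, FRO2 and bHLH38 passed the filter only through the whole-root libraries, so a call for them could only be lower. IRT1 had 2 counts in sorted cells and 3128 in whole roots, a scaled ratio 627-fold lower (exact 95% interval 173 to 5179). IRT2 had 2 against 784 counts, 157-fold lower (43.4 to 1300). FRO2 changed by -5.67 (SE 0.75; -7.31 without myb36-1 sorted replicate 1, which leaves 3 counts), AHA2 by -2.0, FIT by -1.87 and NRAMP1 by -1.65 on the log2 scale. bHLH38 had 0 counts in sorted cells against 162 in whole roots, which is at least 21.6-fold lower against a floor of 3 counts over the group (17.4-fold by the exact 95% limit), and its call was lost with the replicate number as a block (adjusted p = 0.0594). bHLH100 had 0 against 43 counts, at least 5.75-fold lower against the same floor (4.48-fold by the exact limit), and was too low to be tested. bHLH39 differed by -0.53 (adjusted p = 0.445) without overlap, at 2.32 ± 0.377 CPM in sorted cells and 3.41 ± 0.873 CPM in whole roots (SD, n = 3 each). bHLH101 was too low to be tested. Libraries of the 2 tissues did not overlap for 9 of the 10 genes in myb36-1 and 6 of 10 in wild type, beside 51% and 73.6% of all genes tested. In myb36-1 the 9 were the 8 genes tested and bHLH100, which was not.

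**Figure D4:**
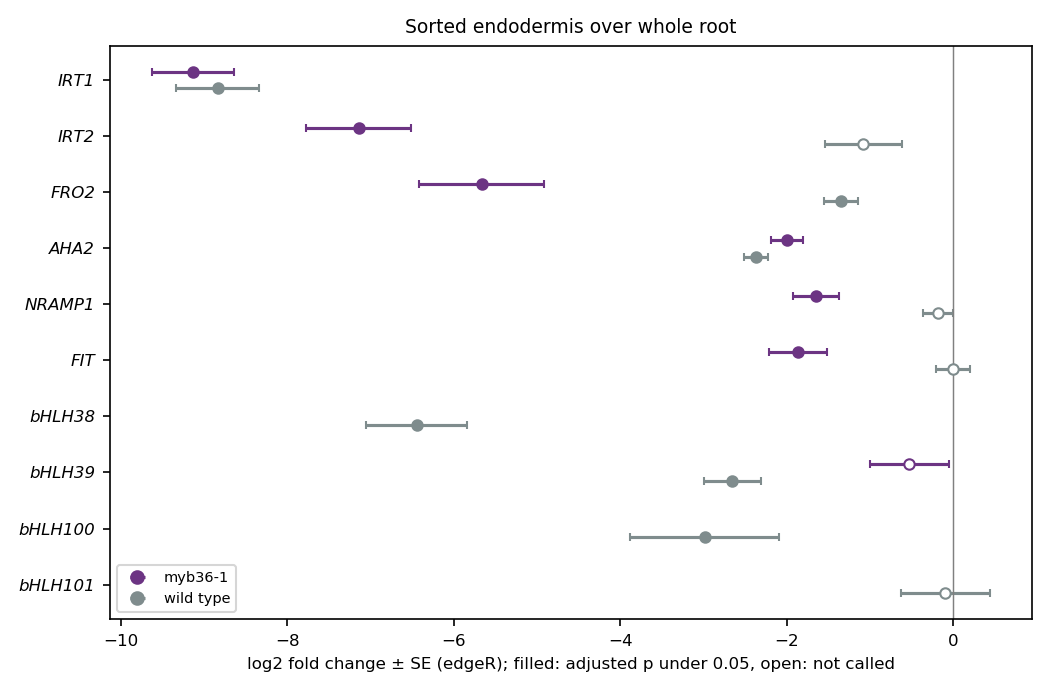
Log2 fold change of sorted endodermis over whole root with its SE (horizontal axis) for the 10 genes, in myb36-1 and in wild type; filled points passed the test, bHLH38 in myb36-1 is left out because its sorted libraries hold no count, and bHLH100 and bHLH101 in myb36-1 were too low to test. IRT1 is lowest in both genotypes, while IRT2, FIT and NRAMP1 are called lower in myb36-1 and not in wild type.

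IRT1 and IRT2, neighbours on chromosome 4, differed in order between tissues. In wild-type sorted cells IRT1 had 10 counts and IRT2 293, a count ratio of 0.0341. In whole roots the ratio was 3.99 in myb36-1 and 7.57 in wild type. In myb36-1 sorted cells both genes had 2 counts.

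Levels per kilobase of exon, in TMM-scaled CPM, showed AHA2 to be the highest of the 10 genes in all 4 groups, at 202 ± 20.8 in myb36-1 sorted cells, 140 ± 14.8 in wild-type sorted cells, 820 ± 101 in myb36-1 whole roots and 734 ± 33.7 in wild-type whole roots (SD, n = 3). In wild-type whole roots IRT1 followed at 53.6 ± 26.6, then NRAMP1 at 35.6 ± 7.85, FIT at 20.5 ± 5.97, FRO2 at 11 ± 3.10 and IRT2 at 8.03 ± 5.12. In wild-type sorted cells NRAMP1 was at 30.7 ± 3.85, FIT at 20.1 ± 2.55, FRO2 at 4.25 ± 0.486 and IRT2 at 3.74 ± 1.03, while IRT1 was at 0.116 ± 0.0516.

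Among the groups, the levels of IRT1, bHLH38 and bHLH100 ran from highest to lowest as wild-type whole root, myb36-1 whole root, wild-type sorted and myb36-1 sorted, with only the step from whole root to sorted separated beyond the overlap of libraries. For IRT2, FIT and NRAMP1 the myb36-1 sorted libraries stood apart at the bottom and the other 3 groups overlapped with their neighbours in order. For FRO2 both sorted groups stood apart from whole root and from each other. bHLH39 ran from wild-type whole root to myb36-1 whole root to myb36-1 sorted to wild-type sorted with every step separate. The levels of bHLH101 overlapped throughout.

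The other iron genes were described by lists totalling 78 genes, which were chosen with earlier results of these data known. In sorted endodermis 52 of them could be tested, of which 10 were called higher and 3 lower in myb36-1, beside 15.6% called higher and 12.9% lower among all genes tested, and their median log2 fold change was 0.16 beside -0.05. The 13 calls among 52 genes are a share near that background. Without wild-type sorted replicate 1 or 2 the 13 calls became 8 or 7. In whole root 65 could be tested, of which 6 were called higher and none lower, beside 3.25% called higher and 2.85% lower among all genes, with a median of 0.00 beside 0.01. The 6 calls became 3 without wild-type replicate 3 and 2, 2 and 1 without myb36-1 replicates 1, 2 and 3. Over 14 alternative fits, the sorted-cell calls given below for AHA11, AHA7 and FER3 were made in 13, 9 and 11, and the whole-root calls for FRO4, AHA4, NAS4 and EHB1 in 11, 13, 6 and 10.

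Of 17 tested regulators of the bHLH genes, 4 were called higher and 1 lower in sorted cells, beside 15.6% higher and 12.9% lower among all genes tested. In whole root none of 19 was called by edgeR, with 4 at an unadjusted p under 0.05, while DESeq2 called 1 and limma-voom 0. bHLH104, a factor that activates the subgroup Ib genes, averaged 53.0 ± 7.37 CPM in myb36-1 sorted cells and 14.6 ± 4.54 CPM in wild-type sorted cells (log2 fold change 1.89, adjusted p = 0.00299). NAI1, a bHLH factor of endoplasmic reticulum body formation, averaged 6.01 ± 0.838 CPM in myb36-1 and 61.0 ± 4.43 CPM in wild type (-3.32, adjusted p = 0.000212). ZAT12, a zinc finger protein that binds FIT and is also on the stress list, had the highest level per length of this list and rose by 1.89 on the log2 scale (adjusted p = 0.00795).

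Among 7 tested ferric reductase and ZIP genes other than the members, none was called in sorted cells by edgeR, DESeq2 or limma-voom (2 at an unadjusted p under 0.05), and 3 were called in 1 fit of all 12 libraries. In whole root 1 of 11 was called, beside 6.1% of all genes tested. It was FRO4, a copper reductase gene of the FRO family, at 32 ± 12.5 CPM in myb36-1 and 11.6 ± 3.77 CPM in wild type (log2 fold change 1.47, adjusted p = 0.0254). FRO3, a mitochondrial ferric reductase gene, had the highest level per length of this list. Of 9 tested proton pump genes, AHA1 and AHA11 (log2 fold change 1.21, adjusted p = 0.0125) were called higher and AHA7 (-1.10, adjusted p = 0.0370) lower in sorted cells, and AHA4 was called higher in whole root (1.13, adjusted p = 0.00341). Over all genes tested, 28.5% were called in either direction in sorted cells and 6.1% in whole root.

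Of 13 tested genes of the metal movement and storage list, 3 were called higher and 1 lower in sorted cells, beside 15.6% and 12.9% of all genes. NAS2, a nicotianamine synthase that makes the metal chelator of the phloem, averaged 15.4 ± 2.74 CPM in myb36-1 sorted cells and 0.805 ± 0.119 CPM in wild-type sorted cells (log2 fold change 4.27, adjusted p = 0.000597). FER3, a ferritin, averaged 60.3 ± 12.0 CPM in myb36-1 and 116 ± 7.67 CPM in wild type (-0.91, adjusted p = 0.0163). In whole root 3 of 21 were called higher, beside 3.25% of all genes, with NAS4 showing the largest change (1.87, adjusted p = 0.0456). FER1, a ferritin gene, had the highest level per length of this list and was not called in either tissue.

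Of the 6 genes for control of the IRT1 protein, CIPK23, a kinase that phosphorylates IRT1, was called higher in sorted cells at 86.1 ± 3.14 CPM in myb36-1 and 33.5 ± 5.82 CPM in wild type (log2 fold change 1.39, adjusted p = 0.00274). EHB1, which limits IRT1 activity, was called higher in whole root (0.99, adjusted p = 0.0277). AT1G20110 had the highest level per length of this list. In each tissue 1 of the 6 genes was called and 5 were not. Over all genes tested, 15.6% were called higher in sorted cells and 3.25% in whole root.

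Coumarins released by roots mobilise ferric iron. F6H1, which makes their precursor, averaged 114 ± 19.0 CPM in myb36-1 and 9.29 ± 2.57 CPM in wild-type sorted cells (log2 fold change 3.64, adjusted p = 0.000306), and ABCG37, which exports them, fell by 2.44 on the log2 scale (adjusted p = 0.00261). AT1G28680 (2.31, adjusted p = 0.00125) and BGLU42 (1.09, adjusted p = 0.0232), a beta-glucosidase, were also called higher in sorted cells. Of 4 coumarin genes tested, 3 were thus higher and 1 lower, beside 15.6% higher and 12.9% lower among all genes tested. BGLU42 was called in 9 of 14 alternative fits and the other 3 in all 14. In whole root F6H1 (1.15, adjusted p = 0.00759) and AT1G28680 (0.44, adjusted p = 0.0371, called in 7 of 14 alternative fits) were called higher.

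**Figure D5:**
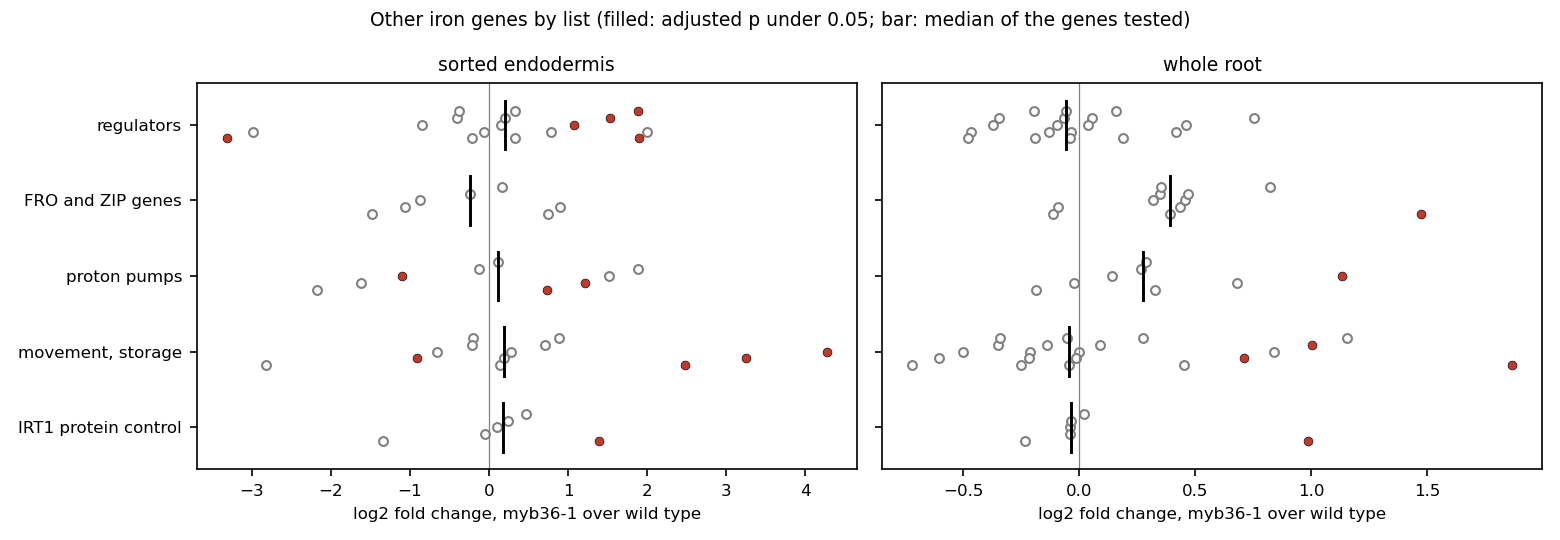
Log2 fold change of myb36-1 over wild type (horizontal axis) for the other iron genes by list, in sorted endodermis (left) and whole root (right); each point is a gene, filled points passed the test and bars are medians of the genes tested. In sorted endodermis 10 genes were called higher and 3 lower, and in whole root 6 were called higher.

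Likeness of pattern was measured as the root mean square difference of log2(CPM + 1) over the 12 libraries after centring each gene, among 14774 genes with a mean of 5 CPM or more. The 5 genes nearest to IRT1 were AT3G62040 (0.31), UMAMIT20 (0.38), XCP2 (0.39), AT3G53980 (0.41) and SWEET11 (0.42). Those nearest to FIT were AT5G51500 (0.23), ABCC8 (0.26), AT2G02680 (0.29), AT5G20550 (0.30) and MEB2 (0.32). Of the other members in this search, NRAMP1 stood at rank 101 from FIT, IRT2 at 5800, FRO2 at 9475, AHA2 at 9773 and IRT1 at 14630. bHLH39 averaged 3.20 CPM and had too low a level for this search.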

How the data were processed

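The authors deposited raw read counts per locus for all 12 libraries, made without normalization, and tables of their own tests that hold FPKM, log2 ratios, p-values and q-values, with replicates pooled to 1 FPKM per genotype, per the file headers. TAIR10 is the build in the submitters' processing notes, which list TopHat2, SAMtools, Cufflinks, Cuffdiff and HTSeq; the notes used here give no versions, roles or strand setting. Deposited normalized counts were left aside. Of 33602 loci, 32835 were in the RefSeq TAIR10.1 annotation used for names, exon lengths and coordinates.

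Tests used edgeR 4.0.16 under R 4.3.3 (TMM, filterByExpr by group, quasi-likelihood F-test, Benjamini-Hochberg over all genes tested), in separate fits of 6 libraries for each comparison and 12 for the interaction. An SE is the log2 fold change divided by the square root of F. Alternatives were DESeq2 1.42.0, limma-voom (limma 3.58.1), other size factors, no low-count filter, 1 fit of 12 libraries, thinned counts, the replicate number as a block, and each library left out. The fitting code was tested on simulated data. Libraries were placed in groups by their labels, and replicates differed by more than sampling noise.

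Named genes were the 10 members, AHA1, the coumarin genes, and the 5 genes most like IRT1 and FIT. From each list, the called gene with the largest change in each direction and the one with the highest level per length were also named. WER, SCR, GSO1, YSL2, YSL3, LRX2, MYB23, EXPA18, SMB, BRN1, BFN1, FEZ and AT1G09750 were added after their values were seen. The members and lists were chosen with earlier results of these data known. Exact intervals are at 95% and, like floors, cover counting error only.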

Additional observations from a re-analysis of the deposited data

Results flagged for a closer look

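The effect of myb36-1 in sorted endodermis differed from its effect in whole root, by the interaction term over all 12 libraries (edgeR), for 5 of the 10 genes. Of 67 other iron genes tested, 9 were called higher and 8 lower. Among all 20302 genes tested, 13.8% were higher, 14.6% lower and 28.4% in either direction, and the share of the other iron genes was near that background. The differences on the log2 scale, sorted minus whole root, were -6.07 for IRT2, -4.28 for FRO2, -1.85 for FIT, -1.46 for NRAMP1 and 2.14 for bHLH39. Among the other iron genes named they were 2.34 for ZAT12, 3.23 for YSL2, 2.47 for YSL3, 1.94 for bHLH104, -3.15 for NAI1, -2.49 for FRO4, 0.86 for AHA11, -1.81 for AHA7, 3.24 for NAS2, -1.02 for FER3 and 1.41 for CIPK23, with adjusted p-values from 1.21e-05 to 0.0342. Of the coumarin genes, F6H1 differed by 2.47, AT1G28680 by 1.85, BGLU42 by 0.92 and ABCG37 by -2.06. Of 13 epidermis and root hair genes 10 were called lower by this term, as were 4 of 5 root cap genes, and none of either list was higher. Of 10 endodermis genes 6 were called higher and none lower, and none of 8 stele genes was called. Of 12 wounding and rapid stress genes 3 were called higher and 1 lower. SCR differed by 1.77, GSO1 by 2.40 and WER by -5.71.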

How the results depend on the processing

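The calls of IRT2, FRO2, FIT and NRAMP1 in sorted endodermis were made in all 14 alternative fits, and AHA2 was called in 3 of them. One fit of all 12 libraries called 9251 genes in sorted endodermis, 27 of the other iron genes, 142 and 0 in whole root, and 9057 between tissues in myb36-1. Leaving out each library gave 2236 to 7017 genes called in sorted endodermis and 7 to 17 of the other iron genes, 594 to 1876 and 1 to 9 in whole root, and 2905 to 8557 between tissues in myb36-1. In whole root 1 of the 10 genes was called without the low-count filter (bHLH39), 2 with the replicate block (IRT1 -0.72, bHLH39 -0.83) and 0 to 1 without each library (bHLH101 without wild-type replicate 1). The labels do not say whether the same replicate numbers pair the samples. Correlations of deviations between libraries of the same number ran from -0.131 to 0.292 over the 4 comparisons, and from -0.0487 to 0.288 in whole root. With the block 4684 genes were called in sorted endodermis, and 1512 in whole root beside 1197 without it. Uncalled values changed sign without single libraries, over the ranges -0.32 to 0.64 for IRT2, -0.10 to 0.36 for FRO2, -0.21 to 0.086 for NRAMP1, -0.40 to 0.11 for bHLH100, -0.15 to 0.016 for CIPK23 and -0.15 to 0.21 for FER3 in whole root. In wild-type tissues the range was -0.17 to 0.25 for FIT and -0.54 to 0.32 for bHLH101, and FIT was 0.023 with limma-voom, 0.021 with the replicate block and 0.0032 thinned. In the interaction the ranges were -0.82 to 0.084 for IRT1, -4.26 to 0.19 for bHLH100 and -1.08 to 1.13 for bHLH101, and limma-voom gave 0.068 for IRT1, 0.61 for bHLH38, 0.18 for bHLH100 and -0.15 for bHLH101. The cause was not tested. Without TMM the levels per kilobase were 9.16 for IRT2 in myb36-1 whole root and 790.9 for AHA2 in wild-type whole root. Counts of 0 to 5 per library limit what can be said of IRT1, bHLH38 and bHLH100 in sorted cells.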

Other observations

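Some genes of the metal movement and storage list, chosen after their values were seen, shared the low level of IRT1 in wild-type sorted cells. Over the 3 wild-type sorted libraries and the 3 wild-type whole-root libraries, CYP82C4 had 1 and 924 counts, NAS1 6 and 2319, FRD3 16 and 1846, and IREG2 1 and 721. NAS2 had 47 and 1041 counts in these groups, and reached 15.4 CPM in myb36-1 sorted cells, against 0.805 CPM in wild-type sorted cells. YSL2 and YSL3, transporters of metal chelates with nicotianamine, were called higher in myb36-1 sorted cells by 3.25 and 2.48 on the log2 scale.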
